A study of Mus musculus with 7 samples.

Results

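The beaded filament and fibril-associated collagens of the aorta were described gene by gene. They were taken by name as 8 genes of 55487 in the tables: Col6a1, Col6a2, Col6a3, Col6a5 and Col6a6, which encode chains of type VI collagen, and Col12a1, Col14a1 and Col16a1, which encode the chains of type XII, XIV and XVI collagen. The rule names genes and uses no measured value, but it was written with earlier results of these data known. Messenger RNA came from thoracic aortas of 7-week-old male C57BL/6 mice, with 1 library per mouse from 3 Col3a1+/G182R and 4 Col3a1+/+ mice. The Col3a1+/G182R mice carried 1 knock-in allele of Col3a1, which puts arginine in place of a glycine of the type III procollagen chain (G182R) in all tissues, and 1 wild-type allele. No mouse received a treatment. Genotypes were compared to ask whether collagens that sit around or on the fibrils differ when 1 allele of a fibril-forming chain is altered.

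Type VI collagen is not a fibril. Its α1, α2 and α3 chains fold together, and the resulting units join end to end into beaded microfilaments that lie between collagen fibrils, basement membranes and cells. Types XII, XIV and XVI belong to or are close to the fibril-associated collagens with interrupted triple helices. Of these, types XII and XIV attach to the surface of collagen fibrils. In the arterial wall, adventitial fibroblasts are a major source of these genes, and smooth muscle cells also express several of them.

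Levels of different genes were compared in TPM, the share of transcripts scaled to a fixed sum in each library, which takes transcript length into account. The 8 genes fell into 5 steps that were the same in all 7 libraries. Col6a1, Col6a3 and Col6a2 took the first 3 places in every library, with means over the 7 libraries of 309.5, 287 and 230.2 TPM, and their order within these places differed between libraries. Col14a1 took place 4 in each library at a mean of 80.9 TPM and Col16a1 place 5 at 25.3 TPM. Col12a1 at 5.41 TPM and Col6a6 at 4.53 TPM shared places 6 and 7, with their order changing between libraries, and Col6a5 was last in each at 0.599 TPM. Among the 15688 genes tested, mean TPM placed Col6a1 at the 97.6th percentile, Col6a3 at the 97.4th, Col6a2 at the 96.8th, Col14a1 at the 89.8th, Col16a1 at the 70.9th, Col12a1 at the 35.3th, Col6a6 at the 32.3th and Col6a5 at the 6.5th. In TPM the type VI genes thus hold both the highest and the lowest level of the set. These places rest on estimated mean transcript lengths, which for Col6a3, Col12a1 and Col16a1 lay far below the longest transcript.

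**Figure D1:**
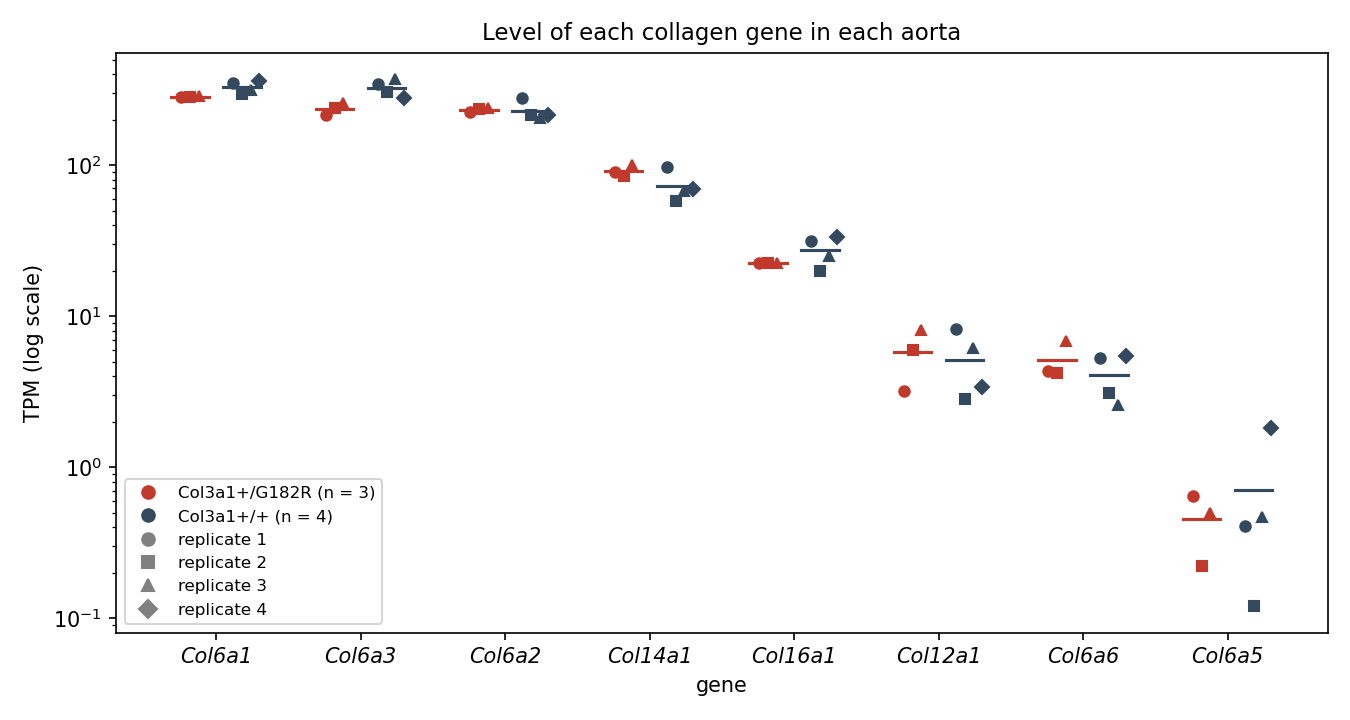
TPM on a log axis for each of the 8 collagen genes, with 1 point per library, red for the 3 Col3a1+/G182R mice and dark blue for the 4 Col3a1+/+ mice, and a line at each mean. Col6a1, Col6a3 and Col6a2 sit between 206 and 370 TPM in all libraries, and Col6a5 sits between 0.12 and 1.83 TPM.

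The summed TPM of the 8 genes ran from 837 to 922 in Col3a1+/G182R aortas and from 897 to 1114 in Col3a1+/+ aortas. The means were 878 ± 42.2 TPM in Col3a1+/G182R (SD, n = 3) and 992 ± 90.5 TPM in Col3a1+/+ (SD, n = 4). The 3 main type VI genes made up 85.1 to 86.5% of this sum in Col3a1+/G182R aortas and 87.2 to 90.7% in Col3a1+/+ aortas, so this share did not overlap between the genotypes. Col6a1 and Col6a3 were themselves lower in TPM without overlap, so nothing further is read from this share. The sum depends on estimated transcript lengths, which differed between genotypes for Col6a3.

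Depth tended to be higher in Col3a1+/G182R libraries, at 18820015 to 23953746 expected counts, than in Col3a1+/+ libraries, at 13693861 to 21634680. The ranges overlapped. The first principal component, which held 43.3% of the variance, put the Col3a1+/G182R libraries between -35.2 and -25.1 and the Col3a1+/+ libraries between -11.2 and 65.6, with Col3a1+/+ replicate 4 farthest out and Col3a1+/+ replicate 1 nearest to the Col3a1+/G182R libraries. The estimated fragment length, read as length minus effective length, was 121 to 131 bases in Col3a1+/G182R libraries and 114 to 120.02 bases in Col3a1+/+ libraries.

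No member passed the genotype test. All 8 genes passed the filter on low counts, and with edgeR's quasi-likelihood test (Benjamini-Hochberg adjusted p under 0.05) 0 of 8 were called, against 6 of all 15688 genes, 0.0382%. DESeq2 also called 0 of the 8 and 723 of all genes. Only Col14a1 had an unadjusted edgeR p under 0.05, 1 of 8 members beside 20.4% of all genes, a share no higher than that of the background. The count of 6 ran from 0 to 183 as single libraries were left out. It was 0 without any one Col3a1+/G182R replicate or without Col3a1+/+ replicate 2 or 3, 183 without Col3a1+/+ replicate 1 and 32 without Col3a1+/+ replicate 4. The count of members stayed at 0 in each of these fits. In a whole aorta, fewer cells of a type and less RNA per cell cannot be told apart.

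**Figure D2:**
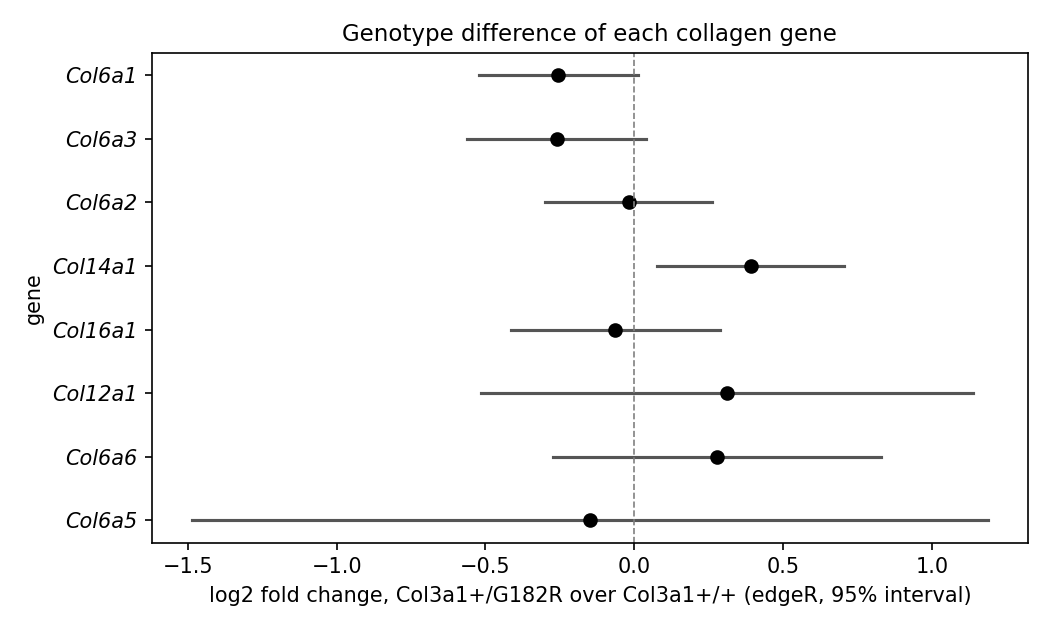
The log2 fold change, Col3a1+/G182R over Col3a1+/+, of each collagen gene, as points with 95% intervals from the edgeR fit over 7 libraries. The intervals of 7 genes cross 0 and that of Col14a1 runs from 0.08 to 0.71, yet its adjusted p over all genes was 0.186.

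Col6a1 (ENSMUSG00000001119) encodes the α1 chain of type VI collagen, which is needed for any assembly of the α1, α2 and α3 unit. It lies on the minus strand of chromosome 10 of GRCm38, from 76708792 to 76726168, and its longest transcript has 35 exons and 4100 bases. The CPM, a count scaled to library size with TMM factors, was 799, 825 and 751.5 in Col3a1+/G182R aortas, against 939, 875, 948 and 1017.5 in Col3a1+/+ aortas. All Col3a1+/G182R values lay under all Col3a1+/+ values. The means were 792 ± 37.2 CPM in Col3a1+/G182R (SD, n = 3) and 945 ± 58.3 CPM in Col3a1+/+ (SD, n = 4), a log2 fold change of -0.26 (SE 0.119) with an edgeR adjusted p of 0.259. The 95% interval of the fold ran from 0.697 to 1.01, and DESeq2 gave an adjusted p of 0.111. As single libraries were left out, the log2 fold change ran from -0.29 to -0.23. Col6a1 was the only member that lay lower without overlap, beside 10.8% of all genes tested. Between 14308 and 20271 expected counts stood behind each value, so counting error was small beside the spread of mice.

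Col6a2 (ENSMUSG00000020241) encodes the α2 chain and lies near Col6a1 on the same strand of chromosome 10, from 76595762 to 76623630, with 85161 bases between the pair. Its CPM was 627, 678 and 615 in Col3a1+/G182R aortas, against 738.5, 636, 620 and 598 in Col3a1+/+ aortas. Col3a1+/+ replicate 1 was the highest of the 7, and the other 6 libraries overlapped across genotypes. The log2 fold change was -0.02 (SE 0.125, edgeR adjusted p = 0.941), with a 95% interval of the fold from 0.813 to 1.20. A fall or rise within these bounds is not excluded by the interval.

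Col6a3 (ENSMUSG00000048126) encodes the long α3 chain, whose C-terminal end is cut off after secretion and released as endotrophin. It lies on the minus strand of chromosome 1 from 90765923 to 90843971, and its longest transcript has 44 exons and 10106 bases. CPM was 404, 473 and 442 in Col3a1+/G182R aortas, against 520.4, 573, 569.7 and 445 in Col3a1+/+ aortas. Col3a1+/+ replicate 4 sat inside the Col3a1+/G182R range, and the other Col3a1+/+ libraries were above it. The log2 fold change was -0.26 (SE 0.135, edgeR adjusted p = 0.296), with an interval of the fold from 0.677 to 1.03, and it ran from -0.34 to -0.215 as single libraries were left out.

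**Figure D3:**
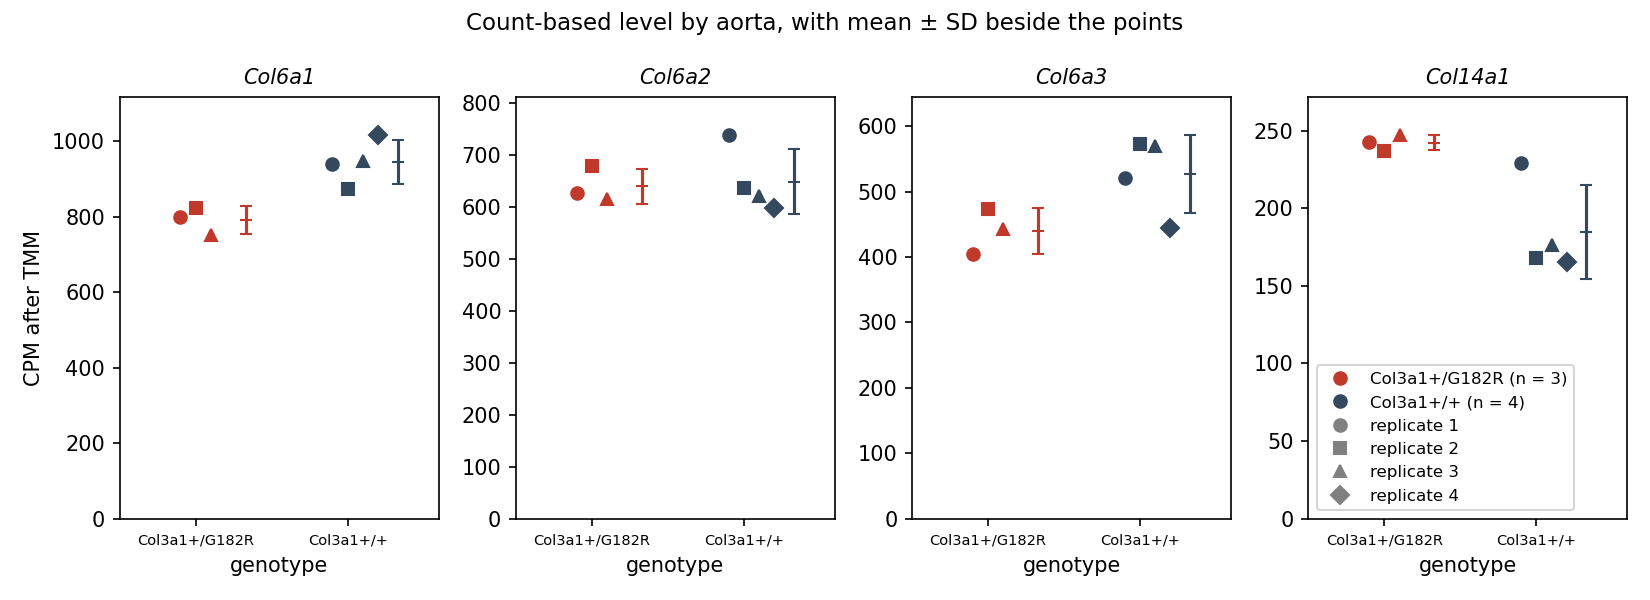
CPM after TMM scaling, on axes that start at 0, for the 4 most abundant members, with 1 point per aorta, the marker shape giving the replicate number, and the mean with its SD beside the points. Col6a1 is lower and Col14a1 higher in all 3 Col3a1+/G182R aortas than in any of the 4 Col3a1+/+ aortas, while Col6a2 and Col6a3 overlap.

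The bases directly before the outermost annotated start of these genes are shown. Col6a1, Col6a2 and Col6a3 supply the chains of 1 protein from 2 chromosomes. Each stretch has 126 bases of GRCm38.p6 from the RefSeq promoter table, where 6 of the 8 members were found, and is written 5′ to 3′ on the minus strand. Capitals would mark the GC box (GGGCGG), the TATA box core (TATAAA) and the CAAT box (CCAAT), searched on both strands, and no stretch holds one.
Col6a1, chr10:76726169-76726294: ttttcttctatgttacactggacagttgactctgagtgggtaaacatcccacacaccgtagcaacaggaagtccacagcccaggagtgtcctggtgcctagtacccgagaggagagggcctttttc
Col6a2, chr10:76623631-76623756: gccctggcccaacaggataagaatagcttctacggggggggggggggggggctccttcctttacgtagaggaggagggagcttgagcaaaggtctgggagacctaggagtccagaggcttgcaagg
Col6a3, chr1:90843972-90844097: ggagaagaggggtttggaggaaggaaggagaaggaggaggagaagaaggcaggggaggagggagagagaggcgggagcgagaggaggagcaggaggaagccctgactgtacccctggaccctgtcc
For the 32851 promoters of the table, the 126 bases before the table's own start were searched as well. They held the GC box in 27.0%, the TATA box core in 6.6% and the CAAT box in 22.0%. The GC content of the stretches was 51.6% for Col6a1, 61.1% for Col6a2 and 62.7% for Col6a3, with a median of 54.0% over the table. The table's start can differ from the outermost annotated start that placed the stretches. For Col6a2, other annotated transcripts begin at base 306 counted from its outermost start. The table's values are therefore not a matched background, and nothing is read from the absence of boxes. The Col6a2 stretch holds an unbroken run of guanines, and the Col6a3 stretch is rich in repeated purines.

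The lengths in the tables separate Col6a3 from its partners. For each library RSEM gives a gene the mean length of its transcripts, weighted by their estimated abundance. For Col6a3 this mean was 2765, 2818 and 2723 bases in Col3a1+/G182R aortas, against 2333, 2650.1, 2135 and 2394 bases in Col3a1+/+ aortas. All 3 Col3a1+/G182R values were above all 4 Col3a1+/+ values, as for 9.32% of the 12450 genes whose mean length varied at all, and all were far below the 10106 bases of the longest transcript. The annotation holds 8 Col6a3 transcripts, of which 3 have 476 to 646 bases and 3 exons each, so the mean lies under full length where short models take a large estimated share.

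Since TPM divides by length, the Col6a3 difference was larger in TPM than in CPM. TPM was 213, 239 and 258 in Col3a1+/G182R aortas, against 346, 303, 369.7 and 277 in Col3a1+/+ aortas, with no overlap. Col6a1 and Col6a3 were the members with lower TPM in every Col3a1+/G182R library than in any Col3a1+/+ library, 2 of 8 beside 9.32% of all genes tested. The log2 ratio of the mean levels of Col6a3 was -0.45 in TPM and -0.26 in CPM. With the effective length as an offset, edgeR gave a log2 fold change of -0.49 and still did not call the gene.

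The other members differed in how well the mean length follows the longest model. Col6a6 had 8781 bases in all 7 libraries, which is its longest transcript, and Col6a1 had 4091 to 4100 bases of 4100. Col16a1, with 13 annotated transcripts, had 1550 to 1720 bases in Col3a1+/G182R aortas and 1147 to 1692 bases in Col3a1+/+ aortas, against 5206 for its longest. Col12a1 had 4048 to 4492 bases in Col3a1+/G182R aortas and 3020.4 to 4754 bases in Col3a1+/+ aortas, against 11511 for its longest. Col14a1 had 3888 to 3912 bases in Col3a1+/G182R aortas and 3481 to 4002 bases in Col3a1+/+ aortas, against 6457. Col6a5 had 7361 to 9289 bases in Col3a1+/G182R aortas and 4402 to 9289 bases in Col3a1+/+ aortas, against 9289 for its longest, and its log2 ratio of mean levels was -0.64 in TPM and -0.17 in CPM. The TPM of Col6a3, Col6a5, Col12a1, Col14a1 and Col16a1 therefore rests on how reads were shared among full-length and short models.

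**Figure D4:**
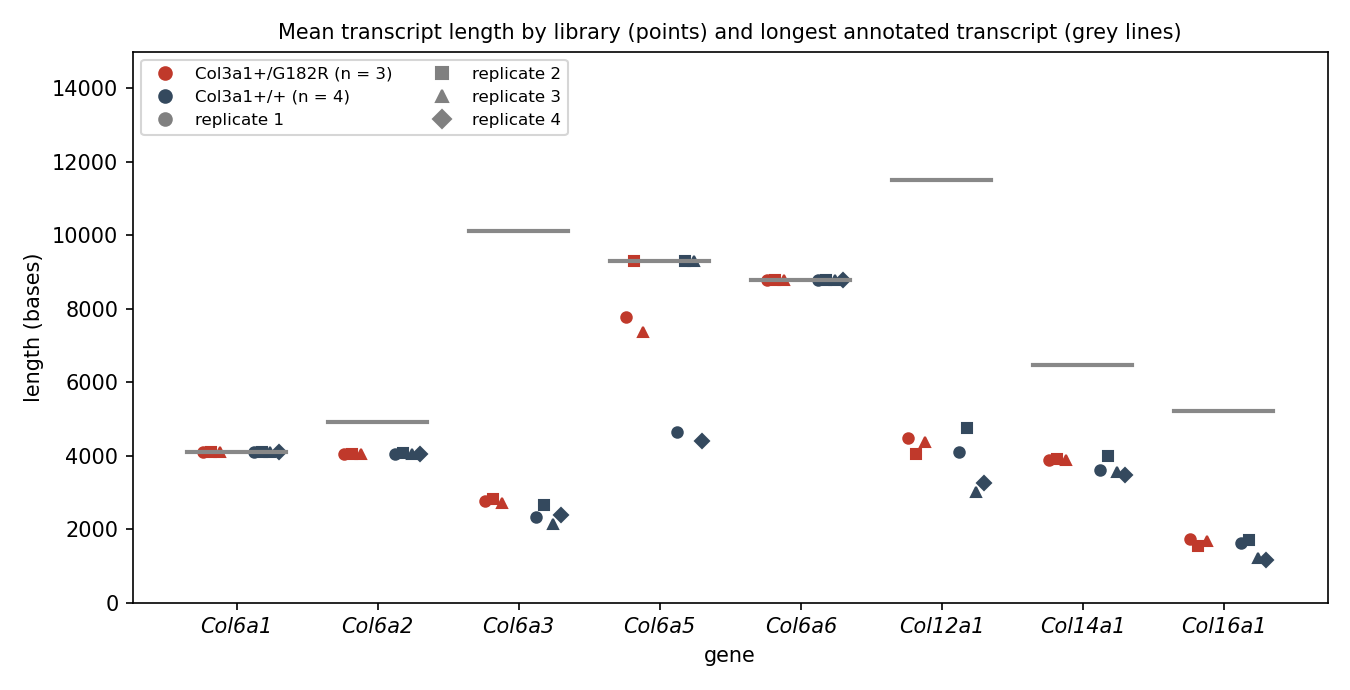
Abundance-weighted mean transcript length in bases, by library (points) and longest annotated transcript (grey lines), for the 8 genes. Points lie on the line for Col6a1 and Col6a6 and far under it for Col6a3, Col12a1 and Col16a1, and for Col6a3 the 3 Col3a1+/G182R points lie above the 4 Col3a1+/+ points.

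Col6a5 (ENSMUSG00000091345) and Col6a6 (ENSMUSG00000043719) encode the α5 and α6 chains, which resemble α3 and can take its place in the type VI unit. They lie near each other on the minus strand of chromosome 9, from 105856078 to 105960643 and from 105687809 to 105828160, with 27917 bases between them. Col6a5 was near the lower limit of detection, with 78.3, 34.2 and 45.2 expected counts in Col3a1+/G182R aortas, against 27.0, 14, 55 and 82 in Col3a1+/+ aortas. The lowest and the highest count were both in Col3a1+/+ aortas, and the log2 fold change of -0.15 (SE 0.598, edgeR adjusted p = 0.901) had an interval of the fold from 0.357 to 2.28. A difference of Col6a5 within these wide bounds is not excluded by the interval.

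Col6a6 had 26.8, 26.6 and 38.8 CPM in Col3a1+/G182R aortas, against 30.9, 20.0, 17.1 and 33.4 CPM in Col3a1+/+ aortas. Col3a1+/G182R replicate 3 was highest, and the other values overlapped. The log2 fold change was 0.28 (SE 0.247, edgeR adjusted p = 0.527), with an interval of the fold from 0.827 to 1.78. Its mean TPM was over 7 times that of Col6a5 and far below that of Col6a3, so α3 was the predominant transcript of the 3 long chains in each library.

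Col14a1 (ENSMUSG00000022371) encodes the chain of type XIV collagen, a homotrimer that binds the surface of fibrils, in part through decorin. It lies on the plus strand of chromosome 15, from 55307750 to 55520803, and its longest transcript has 48 exons and 6457 bases. CPM was 243, 237 and 247 in Col3a1+/G182R aortas, against 229, 168, 176 and 166 in Col3a1+/+ aortas. All Col3a1+/G182R libraries were above all Col3a1+/+ libraries, and Col3a1+/+ replicate 1 stood close to them and apart from the other Col3a1+/+ libraries. Means were 242 ± 5.03 CPM in Col3a1+/G182R (SD, n = 3) and 185 ± 30.1 CPM in Col3a1+/+ (SD, n = 4), a log2 fold change of 0.39 (SE 0.141) with an edgeR adjusted p of 0.186.

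Among the members Col14a1 had the smallest adjusted p, and it was the only one that lay higher without overlap, beside 10.1% of all genes tested. The interval of its fold ran from 1.05 to 1.63, and DESeq2 gave an adjusted p of 0.0962. The log2 fold change ran from 0.33 to 0.51 as single libraries were left out, and was 0.51 without Col3a1+/+ replicate 1 (edgeR adjusted p = 0.0594). In TPM the genotypes overlapped, with 89.9, 85.3 and 99.7 in Col3a1+/G182R aortas, against 97.1, 57.8, 66.9 and 69.6 in Col3a1+/+ aortas, where replicate 1 was within the Col3a1+/G182R range.

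Col12a1 (ENSMUSG00000032332) encodes the chain of type XII collagen, a fibril-surface collagen of tissues under tension. It lies on the minus strand of chromosome 9, from 79598991 to 79718831, with 66 exons in its longest transcript. CPM was 9.97, 17.2 and 22.6 in Col3a1+/G182R aortas, against 22.1, 9.79, 13.7 and 7.58 in Col3a1+/+ aortas. Both genotypes spanned over a 2-fold range, and the log2 fold change was 0.31 (SE 0.369, edgeR adjusted p = 0.639), with an interval of the fold from 0.7005 to 2.20.

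Col16a1 (ENSMUSG00000040690) encodes the chain of type XVI collagen, a minor component of matrix suprastructures. It lies on the plus strand of chromosome 4, from 130047840 to 130099283, with 70 exons in its longest transcript. CPM was 25.6, 23.5 and 23.1 in Col3a1+/G182R aortas, against 31.8, 23.4, 20.7 and 24.5 in Col3a1+/+ aortas. The Col3a1+/G182R values lay within the Col3a1+/+ range, with a log2 fold change of -0.06 (SE 0.157, edgeR adjusted p = 0.836) and an interval of the fold from 0.7504 to 1.22. Its TPM was almost constant in Col3a1+/G182R aortas at 22.4, 22.5 and 22.5, against 31.3, 19.9, 24.9 and 33.7 in Col3a1+/+ aortas.

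Ratios between members within a library need no scaling between libraries, and they are given without a test. The ratio of Col6a2 to Col6a1 CPM was 0.784, 0.822 and 0.818 in Col3a1+/G182R aortas, against 0.786, 0.727, 0.654 and 0.588 in Col3a1+/+ aortas. The Col3a1+/G182R libraries and Col3a1+/+ replicate 1 were close together and above the other 3 Col3a1+/+ libraries. The ratio of Col6a3 to Col6a1 CPM overlapped fully, at 0.556 ± 0.0442 in Col3a1+/G182R aortas and 0.562 ± 0.0925 in Col3a1+/+ aortas (SD, n = 3 and 4). In TPM it was 0.835 ± 0.07 in Col3a1+/G182R aortas and 0.993 ± 0.173 in Col3a1+/+ aortas and overlapped as well.

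The ratio of Col14a1 to Col6a1, chosen after its values were seen, was 0.304, 0.288 and 0.329 in CPM in Col3a1+/G182R aortas, against 0.244, 0.192, 0.186 and 0.163 in Col3a1+/+ aortas. Since Col14a1 was chosen as the member higher and Col6a1 as the member lower without overlap in CPM, their CPM ratio could not overlap, and nothing is read from it. In TPM the ratio was 0.323 ± 0.0231 in Col3a1+/G182R aortas and 0.221 ± 0.04 in Col3a1+/+ aortas. The ratios of Col14a1 and of Col16a1 to Col12a1 followed the wide spread of Col12a1. In TPM, Col14a1 to Col12a1 was 12.3 to 28.3 in Col3a1+/G182R aortas and 10.9 to 20.4 in Col3a1+/+ aortas. Col16a1 to Col12a1 was 2.78 to 7.04 in Col3a1+/G182R aortas and 3.82 to 9.87 in Col3a1+/+ aortas.

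**Figure D5:**
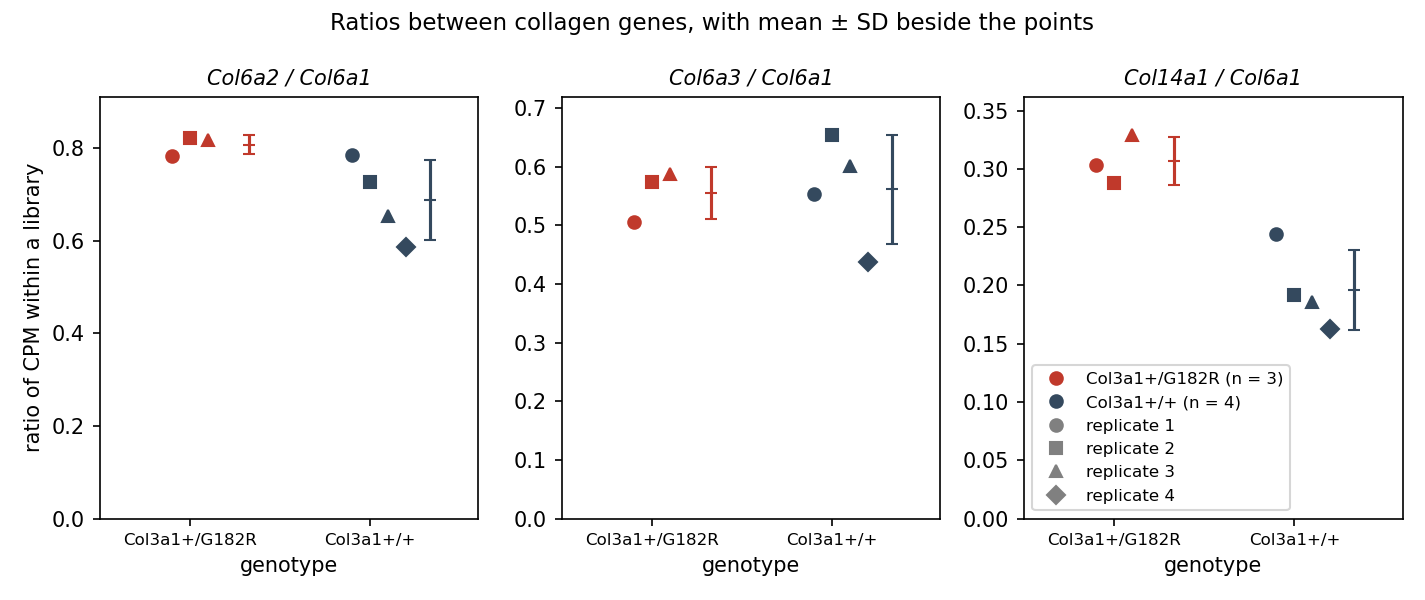
Ratios of CPM between members within each library, on axes that start at 0, with 1 point per aorta and the mean with its SD beside the points. Col14a1 to Col6a1 lies between 0.288 and 0.329 in Col3a1+/G182R aortas and between 0.163 and 0.244 in Col3a1+/+ aortas, a separation that the choice of this pair fixed, and the other ratios overlap.

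Set against the fibril-forming chains Col1a1, Col1a2 and Col3a1, the 3 main type VI genes summed to a TPM ratio of 0.22, 0.228 and 0.175 in Col3a1+/G182R aortas, against 0.193, 0.244, 0.294 and 0.32 in Col3a1+/+ aortas. The genotypes overlapped. Col12a1, Col14a1 and Col16a1 together had a TPM ratio to the same chains of 0.0354, 0.0342 and 0.0291 in Col3a1+/G182R aortas. It was 0.0272, 0.0242, 0.0325 and 0.04 in Col3a1+/+ aortas, with overlap. In CPM this ratio was 0.0329, 0.0314 and 0.0286 in Col3a1+/G182R aortas, against 0.0239, 0.0243, 0.0267 and 0.0266 in Col3a1+/+ aortas, without overlap. Most of that CPM sum was Col14a1, already seen not to overlap. Its mean in Col3a1+/G182R was 242 CPM, beside 16.6 for Col12a1 and 24.1 for Col16a1. Of the 6 fibril-forming chains of the arterial wall, edgeR and DESeq2 called 0, with 0 at an unadjusted edgeR p under 0.05, and their median log2 fold change was -0.08. Col3a1 itself, read from both alleles together, had a log2 fold change of 0.19 (SE 0.217, edgeR adjusted p = 0.633).

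Over the 8 members the median log2 fold change was -0.04, with 3 measured higher and 5 lower, beside 0.01 over all genes tested, of which 7946 were higher and 7742 lower. The 7 remaining genes of these collagen types, Col6a4, Col9a1, Col9a2, Col9a3, Col19a1, Col20a1 and Col22a1, were scarce. Only Col19a1, Col20a1 and Col22a1 passed the filter, and edgeR and DESeq2 called 0 of them, with 0 at an unadjusted edgeR p under 0.05. The 7 genes together had 3.57 to 4.78 TPM in Col3a1+/G182R aortas and 3.55 to 9.14 TPM in Col3a1+/+ aortas, with Col20a1 the highest of them in each library.

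Proteins that tie these collagens to fibrils were described from a list of 11, of which 10 were tested, with a median log2 fold change of -0.16. Of these, edgeR called 0 and DESeq2 called 1, with 2 of 10 at an unadjusted edgeR p under 0.05, beside 20.4% of all genes. Lum, which encodes the fibril-spacing proteoglycan lumican, had 117, 131 and 121 CPM in Col3a1+/G182R aortas, against 99.9, 53.7, 37.0 and 23.1 CPM in Col3a1+/+ aortas. It did not overlap, with a log2 fold change of 1.20 (SE 0.387), an edgeR adjusted p of 0.171 and a DESeq2 adjusted p of 0.0425. Of the list, 1 gene lay higher without overlap, beside 10.1% of all genes tested, and 2 lay lower, beside 10.8%.

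Dcn, which encodes decorin, the proteoglycan that binds type I, VI and XIV collagen, had 490.4, 566 and 580.5 CPM in Col3a1+/G182R aortas, against 528, 179.8, 195 and 129 CPM in Col3a1+/+ aortas. Col3a1+/+ replicate 1 was within the Col3a1+/G182R range, and the log2 fold change was 1.08 (SE 0.407, edgeR adjusted p = 0.194). Matn2, an adaptor of the matrilin family, had a log2 fold change of 0.35 and Hspg2, which encodes the basement membrane proteoglycan perlecan, of -0.23, with edgeR adjusted p-values of 0.299 and 0.315. Hspg2 and Bgn were the 2 genes of the list lower without overlap. Bgn had a log2 fold change of -0.23 (SE 0.128, edgeR adjusted p = 0.329).

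All 10 genes of the list of receptors for type VI collagen and for collagen helices were tested, with a median log2 fold change of 0.19. Among them edgeR called 0 and DESeq2 called 2, with 2 of 10 at an unadjusted edgeR p under 0.05, beside 20.4% of all genes. Cspg4 encodes NG2, a proteoglycan of mural cells that binds type VI collagen. It had 371, 361 and 356 CPM in Col3a1+/G182R aortas, against 526, 496, 645 and 496.5 CPM in Col3a1+/+ aortas. The groups did not overlap, with a log2 fold change of -0.58 (SE 0.134), an edgeR adjusted p of 0.146 and a DESeq2 adjusted p of 0.0024. Of the 10 receptor genes, 2 lay lower without overlap, beside 10.8% of all genes tested, and 0 lay higher.

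Itga10, which encodes a collagen-binding integrin chain, had 43.6, 32.4 and 29.9 CPM in Col3a1+/G182R aortas, against 44.3, 67.8, 52.2 and 120.7 CPM in Col3a1+/+ aortas. The lowest Col3a1+/+ value was just above the highest Col3a1+/G182R value, and the log2 fold change was -1.01 (SE 0.320, edgeR adjusted p = 0.170, DESeq2 adjusted p = 0.0414). Itgb1, the shared β1 integrin chain, and Ddr2, a receptor kinase for fibrillar collagen, had log2 fold changes of 0.40 and 0.22, with edgeR adjusted p-values of 0.406 and 0.408. All 6 proteases that trim the α3 chain or procollagen ends were tested, and edgeR and DESeq2 called 0, with 0 at an unadjusted edgeR p under 0.05. Among them Bmp1, which encodes the procollagen C-proteinase, had a log2 fold change of -0.41 (SE 0.196, edgeR adjusted p = 0.265).

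Markers of the cells that could supply these transcripts are given beside the members, and their part in the values above was not tested. Adventitial fibroblast markers outside the collagens were measured higher in 11 of 12 genes, with a median log2 fold change of 0.36, and their summed TPM was 2341 to 3366 in Col3a1+/G182R aortas and 1659 to 3139 in Col3a1+/+ aortas. Macrophage markers were measured higher in 10 of 10 (205 to 570.2 TPM in Col3a1+/G182R aortas and 150.4 to 250.5 in Col3a1+/+ aortas). Col3a1+/G182R replicate 3 was the highest library for each of them, and 0 of 10 lay higher without overlap. Lyz2 had 88.2, 133 and 243 CPM in Col3a1+/G182R aortas, against 94.8, 68.1, 77.4 and 67.5 CPM in Col3a1+/+ aortas. Adipocyte markers were measured higher in 9 of 10, with 3270.4 to 6111 TPM in Col3a1+/G182R aortas and 2659 to 5572 TPM in Col3a1+/+ aortas.

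Smooth muscle markers, which define the media, summed to 24392 to 26194 TPM in Col3a1+/G182R aortas and 17860 to 29161 TPM in Col3a1+/+ aortas, and none of the 10 was at 0 in every library. Of these 10, 4 were measured higher and 6 lower, with a median log2 fold change of -0.04. Endothelial markers summed to 321 to 458 TPM in Col3a1+/G182R aortas and 190.1 to 567 TPM in Col3a1+/+ aortas. Skeletal and cardiac muscle markers were measured lower in all 5 tested, with 17.8 to 21.6 TPM over the list in Col3a1+/G182R aortas and 33.3 to 59.2 TPM in Col3a1+/+ aortas, and Myh4, a defining gene of fast skeletal fibres, was listed at 0 in every library. Schwann cell markers summed to 13.1 to 18.8 TPM in Col3a1+/G182R aortas and 6.97 to 21.4 TPM in Col3a1+/+ aortas.

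In each of these 7 lists edgeR called 0 genes. At an unadjusted edgeR p under 0.05 there were 3 of 12 fibroblast, 7 of 10 macrophage and 2 of 10 adipocyte markers. There were 2 of 10 smooth muscle, 2 of 10 endothelial, 3 of 5 skeletal or cardiac muscle and 0 of 5 Schwann cell markers tested. The share over all genes tested was 20.4%. DESeq2 called 3 genes of these lists, beside 723 of all 15688. They were Myocd of the smooth muscle list (edgeR log2 fold change 1.48), Lyz2 of the macrophage list (1.01) and Myh6 of the skeletal and cardiac muscle list (-3.73). Des, the other smooth muscle marker at an unadjusted edgeR p under 0.05, was measured lower, at -0.40.

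The genes whose pattern over the 7 libraries was most like that of a member were found by the root mean square difference of log2 CPM, each gene centred on its mean. For Col6a1 the nearest were Actr1b, Golga2 and Zfp212 (0.0312 to 0.0352, where the median over all genes was 0.322), for Col6a2 Sun1, Apaf1 and Hnrnpul2 (0.0317 to 0.0408), and for Col6a3 Camkk2, Mrfap1 and Rpl30 (0.0477 to 0.0514). None of these is a collagen. Col14a1 was near to Cdk12 and Socs7 (0.0597 and 0.0616, median 0.367), and Col16a1 to Man2b1, Acot2 and Unc5b (0.0686 to 0.0865).

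The scarcer members had looser neighbours. Col12a1 was near to Npr3 and Slc9a9 (0.134 and 0.187), Col6a6 to H2-M3, Fam107b and Sdc3 (0.122 to 0.137), and Col6a5 to Nup210 and Sybu (0.27 and 0.322, median 0.899). Between members, the closest pair was Col6a2 and Col16a1 at 0.124, with 0.548% of the tested genes nearer to Col16a1 than Col6a2 was and 6.75% nearer to Col6a2 than Col16a1 was. The partner chains were farther apart than that, with 0.17 between Col6a1 and Col6a2, 0.175 between Col6a1 and Col6a3 and 0.179 between Col6a2 and Col6a3. Of the tested genes, 15.7 to 20.5% were nearer to Col6a1 or Col6a2 than a partner chain was, and 9.15 to 9.96% were nearer to Col6a3 than a partner chain was. A gene with no change over the libraries would lie 0.0966 from Col6a2, 0.143 from Col6a1 and 0.18 from Col6a3. Nearness in this measure thus holds small spread as well as shared pattern, and no shared pattern is read from these pairs. With 7 libraries and many genes, such nearness describes these aortas only.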

How the data were processed

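Thoracic aorta mRNA (stranded poly(A) libraries, paired-end) was measured in 3 Col3a1+/G182R and 4 Col3a1+/+ mice, 1 library per mouse, so p-values measure the spread between mice. The knock-in line came from recombined embryonic stem cells. According to the submitters' processing notes, the authors aligned reads with STAR 2.7.6a to GRCm38 and made the expected counts with RSEM 1.3.1. The paper's methods name another STAR version and featureCounts, and the notes were followed because the tables hold RSEM's columns. The annotation release and strand setting are not given in the sources used here. The deposited TPM values are RSEM's estimates per length and library. The deposited mean and effective transcript lengths are in bases. Expected counts were not whole for 24.5 to 27.6% of genes with counts and were rounded for the tests.

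Symbols and places came from GENCODE M21 (55141 of 55487 identifiers found). Genes were filtered with filterByExpr (minimum count 10) of edgeR 4.0.16, scaled by TMM and compared by its two-sided quasi-likelihood F-test under R 4.3.3. The p-values were adjusted over all 15688 genes (Benjamini-Hochberg, threshold 0.05). CPM uses TMM factors. Standard errors and 95% intervals were derived from the fold change and the F statistic. TPM entered no test. Total expected counts were 13693861 to 23953746. The procedure was tested on simulated data.

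Alternatives were DESeq2 1.42.0, limma-voom with and without library quality weights (limma 3.58.1), no filter on low counts, a stricter filter of 10 counts in each library, RLE in place of TMM factors, effective lengths as offset, the replicate number as a block, leaving out each library and CPM in place of TPM. All 8 members were named. In other lists up to 4 genes with the smallest p were named, and Bgn for its lack of overlap. Per member the 3 nearest genes were named, leaving out other members, predicted genes and genes with no symbol. Some of these are not reported here. The members and lists were chosen with earlier results of these data known.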

Additional observations from a re-analysis of the deposited data

Results flagged for a closer look

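In the 4 Col3a1+/+ libraries, 22 values of the members and their ratios were looked at for a library far from the other 3, of which chance flags about 1 in 20 groups, and 2 were found. The TPM of Col6a2 was 277.0 in Col3a1+/+ replicate 1, against 206.1 to 215.9 in the other Col3a1+/+ libraries. The CPM of Col14a1 was 229.4 in the same library, against 165.6 to 176.3 in the others. Without this library the log2 fold change of Col14a1 was 0.51, with an edgeR adjusted p of 0.0594.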

How the results depend on the processing

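The number of members called was 0 under all alternatives run. In all, 111 of 120 values of single members under an alternative kept their direction, with adjusted p from 0.0594 to 0.998. The number of genes called over all genes, 6 by edgeR, was 723 with DESeq2, 11 with limma-voom, 546 with library quality weights, 353 with no low-count filter (27619 genes tested) and 14 with the effective length offset. It was 0 with at least 10 counts in every library, where 3046 genes had an unadjusted p under 0.05. It ran from 0 to 183 as single libraries were left out, and in the fits with 0 calls 1830 to 3315 genes had an unadjusted p under 0.05. The cause was not tested. In the settings with calls, the 6 genes were among them.

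Libraries with equal replicate numbers did not deviate together (correlations of -0.0469, 0.0153 and 0.0777). Nothing in the labels pairs the mice by number, and these correlations cannot settle whether equal numbers mark littermates. With the replicate block 46 genes were called and the log2 fold change of Col6a5 was 0.58.

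Col6a5 turned round to 0.18 with limma-voom and 0.10 with quality weights, and ran from -0.53 to 0.44 as libraries were left out. Col6a2 was 0.01 with quality weights and ran from -0.065 to 0.05, and Col16a1 from -0.15 to 0.073. Col12a1 ran from 0.02 to 0.68 and Col6a6 from 0.07 to 0.43 as libraries were left out. With the effective length offset Col6a5 was -0.61, Col16a1 -0.31 and Col12a1 0.11, and with the replicate block Col6a6 was 0.45 and Col12a1 0.14. The log2 ratio of Col6a3 means was -0.26 in CPM against -0.45 in TPM, and that of the Col6a3 to Col6a1 ratio -0.015 against -0.25, which follows from the estimated lengths.

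With 3 and 4 mice, the narrowest interval of a fold, that of Col6a1, ran from 0.697 to 1.01, and Col6a5 rests on few counts.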
